A study of Mus musculus with 32 samples.

Results

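The 9 genes described here, Dusp1, Dusp2, Dusp3, Dusp4, Dusp5, Dusp6, Dusp7, Dusp10 and Dusp16, encode dual specificity phosphatases, most of which switch off MAP kinases (MAPKs). They were found as the array probes that carry one of these gene names. These are 12 probes, with a pair of probes each for Dusp3, Dusp7 and Dusp16, and all 9 genes were among the 16051 genes tested. They were measured in bone marrow-derived macrophages (BMDMs), grown from mouse marrow with M-CSF, of WT (C57BL/6) mice and of IFNAR1 knockout mice (Ifnar1-/-), which lack a chain of the receptor for type I interferon. Besides untreated cells of each genotype there were cells given LPS, IFNβ or zVAD alone, LPS or IFNβ together with zVAD, and either of these combinations with Nec-1 as well, all for 6 h. LPS (100 ng/mL by the sample labels) activates the receptor TLR4, and IFNβ (1000 U/mL by the same labels) is a type I interferon. The compound zVAD blocks caspases and Nec-1 blocks RipK1, a kinase of the necroptosis pathway. The doses given elsewhere in the study differ from these labels. With 2 arrays for each genotype and treatment there were 16 groups. No label says that the 2 arrays of a group came from separate mice or cultures, so the p-values measure the spread between these samples, which may be technical. Each of the 4 slides carries the 8 treatments of 1 genotype with 1 replicate number. Slide and genotype therefore cannot be told apart, levels are set side by side between genotypes without a test, and the tests are of changes within a genotype and of the difference between those changes.

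A MAPK is active only while it is phosphorylated on both a threonine and a tyrosine, and a dual specificity phosphatase removes both phosphates. Many Dusp genes are themselves transcribed in response to MAPK signals, so that the phosphatase made by a signal ends it, which is a negative feedback loop. Dusp1, Dusp2, Dusp4 and Dusp5 encode inducible phosphatases of the nucleus, with Dusp5 selective for ERK and Dusp1 acting on p38 and JNK in particular. Dusp6 and Dusp7 encode cytoplasmic phosphatases selective for ERK, and Dusp10 and Dusp16 encode phosphatases directed at JNK and p38. Dusp3 encodes VHR, a small phosphatase without the MAPK-binding domain of the others. In macrophages Dusp1 is known for limiting cytokine production after TLR4 is engaged.

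The stretches upstream of Dusp1, Dusp5 and Dusp16 are shown because they hold the cAMP response element (CRE) or its core motif, a class of site through which several immediate early genes answer to kinase signals. They are RefSeq promoter sequences on build GRCm38.p6, the 250 bases before the gene's start, read 5′ to 3′ on the gene's strand. Dusp1 is at chr17:26508473-26508722 on the minus strand, Dusp5 at chr19:53528895-53529144 on the plus strand and Dusp16 at chr6:134792629-134792878 on the minus strand. Capitals mark the CRE and its core motifs, and in Dusp5 also a pair of adjoining CArG boxes, the element bound by serum response factor.
Dusp1: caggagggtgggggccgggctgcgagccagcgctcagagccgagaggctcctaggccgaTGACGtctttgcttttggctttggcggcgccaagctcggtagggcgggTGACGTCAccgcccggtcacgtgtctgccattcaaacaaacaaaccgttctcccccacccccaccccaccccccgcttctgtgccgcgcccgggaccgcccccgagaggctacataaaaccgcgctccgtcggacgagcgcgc
Dusp5: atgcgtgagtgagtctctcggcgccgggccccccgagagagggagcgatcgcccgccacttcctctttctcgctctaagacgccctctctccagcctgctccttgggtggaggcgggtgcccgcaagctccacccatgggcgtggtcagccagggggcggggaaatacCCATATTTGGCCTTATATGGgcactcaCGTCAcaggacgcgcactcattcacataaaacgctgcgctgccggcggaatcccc
Dusp16: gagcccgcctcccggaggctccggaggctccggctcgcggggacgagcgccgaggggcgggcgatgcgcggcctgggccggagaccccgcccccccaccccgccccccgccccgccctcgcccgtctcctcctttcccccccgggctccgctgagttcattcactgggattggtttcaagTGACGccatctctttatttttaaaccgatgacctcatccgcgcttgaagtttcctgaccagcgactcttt
An entry was found for 8 of the 9 genes, and 32851 windows of the same length were searched on both strands. The CRE (TGACGTCA) was in 1 of the 8, Dusp1, and in 1.546% of all windows. Its core motif (TGACG, which also lies within the CRE) was in 3 of the 8 and in 17.77% of all windows. The CArG box was in Dusp5 only and in 1.467% of all windows, and this motif was added after the sequences had been seen. An NF-kB motif (GGGNNNTTC) was in 2 of the 8, Dusp2 and Dusp5, and in 11.82% of all windows, and its match in Dusp5 overlaps the first CArG box. The letters searched for AP-1 (TGANTCA), the interferon-stimulated response element (GAAANNGAA) and the interferon gamma-activated sequence (TTCNNNGAA) were in 0 of the 8 windows and in 6.749%, 7.129% and 7.02% of all windows. A match is a description of the letters, not a site of binding.

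Levels are given as log2 signal, the log2 of the array's background-corrected intensity after quantile normalization, and 1 unit is a doubling. Since each gene has its own probe, levels were compared between samples and not between genes. In such bulk RNA, fewer cells of a type and less RNA per cell cannot be told apart. Of 9 macrophage markers 8 were measured and were above background on all arrays, with a summed log2 signal of 19.64 to 20.08 on the WT arrays and 19.63 to 20.10 on the Ifnar1-/- arrays. The summed stromal markers ranged from 8.81 to 11.13 in WT and from 10.95 to 13.09 in Ifnar1-/- cells. Neutrophil and progenitor markers gave 12.85 to 14.19 and 12.99 to 14.22, and dendritic cell markers 15.71 to 16.43 and 15.17 to 16.03. T and B cell markers gave 10.30 to 12.01 and 10.40 to 11.26. Single markers can differ more, such as Fcgr1 (12.30 to 16.73 in WT, 6.81 to 11.83 in Ifnar1-/- cells). Ngp (6.30 to 9.66, 11.05 to 12.48) and Ly6g (6.81 to 12.31, 2.75 to 5.14) differed in opposite directions. The part of these markers in the results was not tested. The brightest of 3 Ifnar1 probes read 14.22 and 14.19 in untreated WT cells and 11.89 and 11.87 in untreated Ifnar1-/- cells. Over all treatments its WT values, from 9.02 to 14.76, overlap the Ifnar1-/- values, from 11.16 to 12.44. The other probes separated the genotypes on every array, with 9.94 to 11.88 in WT against 7.29 to 8.73 in Ifnar1-/- cells and with 7.88 to 10.23 against 5.82 to 7.35. Whether any of them lies in the deleted part of the gene is not known here. One Ifnar1-/- array, LPS+zVAD+Nec-1 replicate 2, stood apart. The 495 genes that LPS raised by more than 2 log2 units in Ifnar1-/- cells were a median of 2.26 above untreated cells in its replicate 1 but only 0.054 in replicate 2. Tests of the 9 genes that rest on it are given with and without it. The order of the groups and the correlations over group means were computed only with it.

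In WT cells 6 of the 9 genes were higher after IFNβ, after either stimulus with zVAD and after LPS+zVAD+Nec-1, 5 after IFNβ+zVAD+Nec-1 and 4 after LPS alone. Dusp3 was lower in each of these 6 treatments, Dusp7 in the 3 with IFNβ, and Dusp6 in LPS+zVAD+Nec-1. In the main fit, with all arrays, LPS and LPS+zVAD were the only treatments of Ifnar1-/- cells with any of the 9 genes past the threshold. For LPS+zVAD+Nec-1 this rests on replicate 2, the array that stood apart. On replicate 1 alone the changes from untreated cells included 2.57 for Dusp16, 2.35 for Dusp2, 2.22 for Dusp1 and -1.22 for Dusp3. The threshold is an adjusted p of 0.05, by limma with Benjamini-Hochberg adjustment over all genes tested. In WT cells 43 of the 63 pairs of gene and treatment passed it, 33 higher and 10 lower, and in Ifnar1-/- cells 9 of 63, 6 higher and 3 lower. The last count was 14 without Ifnar1-/- LPS+zVAD+Nec-1 replicate 2 and 18 with the replicate block, in which the slide enters the fit. Of all genes too, a smaller share was called in Ifnar1-/- than in WT cells in each treatment. With LPS it was 10.9% higher and 13.9% lower against 16.3% and 24.8% in WT cells, and with IFNβ 0% against 13.7% and 21.6%. The 7 comparisons of a genotype share its 2 untreated arrays, so they are not independent of each other.

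**Figure D1:**
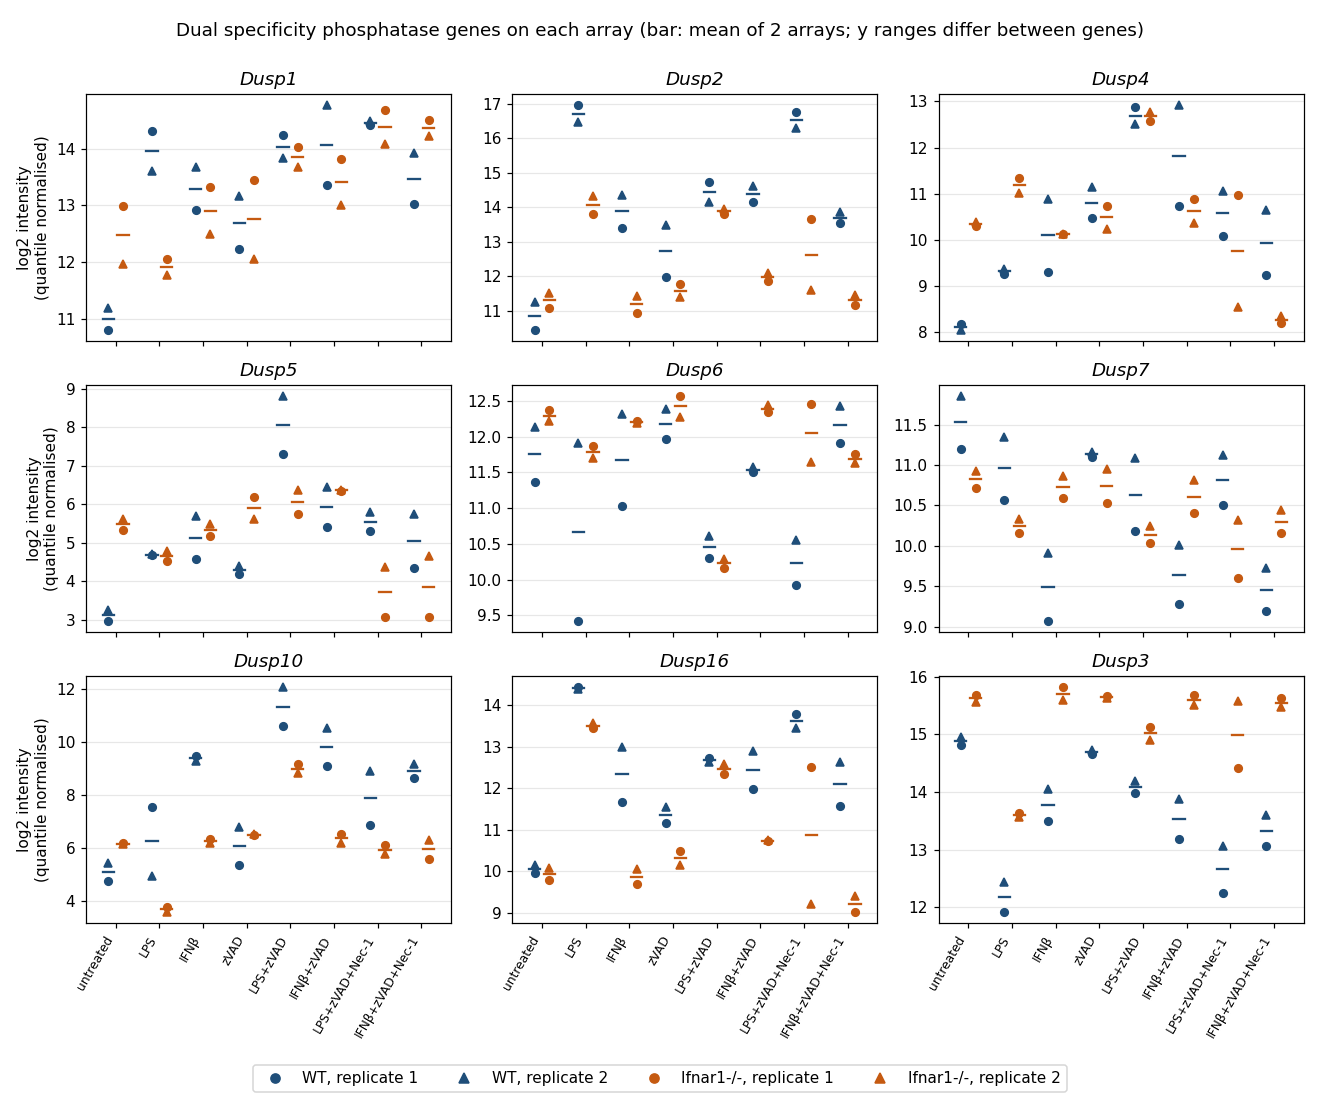
The log2 signal of each gene (y axis, with its own range) is plotted for each of the 32 arrays against the treatment (x axis), with circles for replicate 1, triangles for replicate 2, blue for WT, orange for Ifnar1-/- and a bar at the mean of 2 arrays. WT LPS and WT LPS+zVAD+Nec-1 are the highest groups of Dusp2, WT LPS+zVAD is the highest of Dusp5 and Dusp10, and the triangle of Ifnar1-/- LPS+zVAD+Nec-1 lies far from its circle in Dusp2, Dusp4 and Dusp16.

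After LPS in WT cells 4 of the 9 genes were higher and 1 lower, where 16.3% of all genes were higher and 24.8% lower. After IFNβ 6 were higher and 2 lower (all genes 13.7% and 21.6%). LPS+zVAD gave 6 higher and 1 lower (18.3% and 32.7%) and IFNβ+zVAD 6 higher and 2 lower (14.4% and 23.1%). These shares of the 9 genes that were higher stood above the share of all genes in each of these treatments. With Nec-1 there were 6 higher and 2 lower for LPS+zVAD+Nec-1 (16% and 25%), and 5 higher and 2 lower for IFNβ+zVAD+Nec-1 (13.3% and 18.4%). The median change of the 9 genes was 1.20 with LPS, 2.02 with IFNβ and 3.04 with LPS+zVAD on the log2 scale, where the medians over all genes were -0.08, -0.17 and -0.15. With zVAD alone limma called 0 of the 9 genes and 0.00623% of all genes in either direction. There 3 of the 9, and 901 of all genes, had an unadjusted p under 0.05, and the median change of the 9 was 1.18. In Ifnar1-/- cells LPS gave 2 higher and 2 lower (10.9% and 13.9% of all genes), and LPS+zVAD 4 higher and 1 lower (11% and 17.2%). After IFNβ limma called 0 of the 9 genes and 0% of all genes in Ifnar1-/- cells, with 0 of the 9 and 253 of all genes at an unadjusted p under 0.05. The same counts were 0 and 0% for zVAD, with 0 and 61 unadjusted, and 0 and 0.00623% for IFNβ+zVAD, with 0 and 585 unadjusted. LPS+zVAD+Nec-1 gave 0 of the 9 and 1.31% of all genes, with 4 and 2055 unadjusted, and IFNβ+zVAD+Nec-1 gave 0 and 1.76%, with 3 and 1604 unadjusted. On the 75th percentile scale, in place of quantile normalization, the share of called genes that were higher in WT cells was 50.20% in place of 39.67% for LPS, 50.11% in place of 38.78% for IFNβ and 48.48% in place of 38.43% for IFNβ+zVAD. It was 45.78% in place of 35.88% for LPS+zVAD, 51.09% in place of 41.96% for IFNβ+zVAD+Nec-1 and 54.00% in place of 44.04% for LPS in Ifnar1-/- cells, and no call among the 9 genes changed direction.

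**Figure D2:**
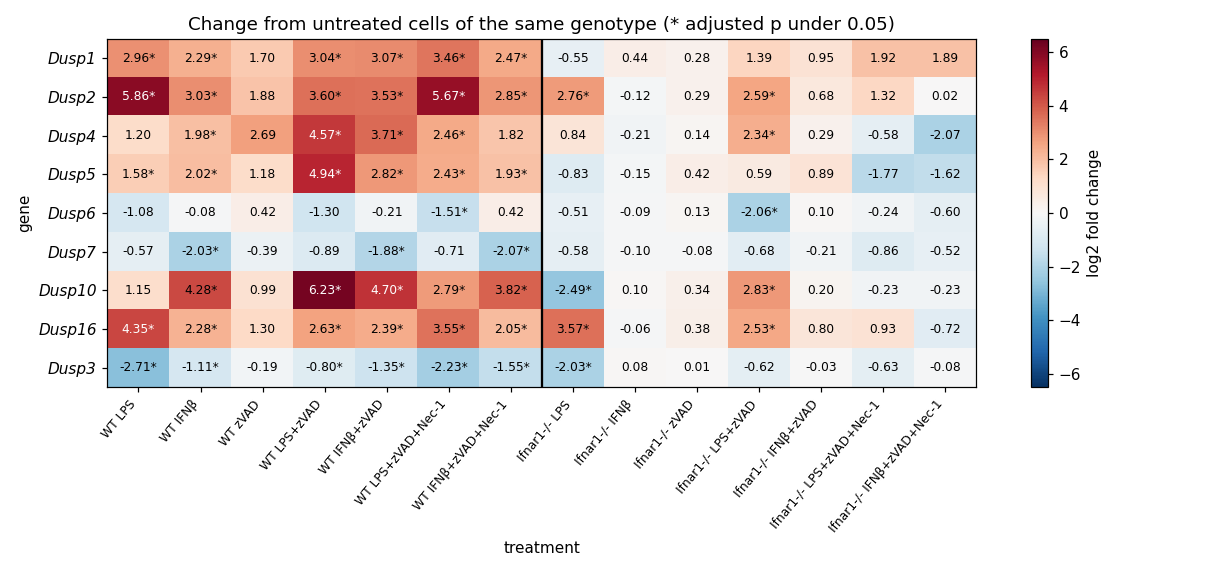
Each cell is the log2 fold change of 1 gene (rows) in 1 treatment (columns) from untreated cells of the same genotype, red for higher and blue for lower, with a star at an adjusted p under 0.05. WT cells, left of the line, hold 43 starred cells and Ifnar1-/- cells hold 9, and fewer of all genes passed in Ifnar1-/- cells too. The changes of Dusp2 and Dusp10 in WT cells reach 5.86 and 6.23.

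Dusp1, the phosphatase best known for restraining p38 and JNK in macrophages, was lowest in untreated WT cells and higher in 6 of the 7 WT treatments. Its log2 signal in untreated WT cells was 10.81 and 11.19 (replicates 1 and 2). With LPS it was 14.31 and 13.60, with IFNβ 12.91 and 13.67, with LPS+zVAD 14.24 and 13.84, and with IFNβ+zVAD 13.36 and 14.77. The treated values did not overlap the untreated ones, and LPS raised the gene by 2.96 ± 0.53 (log2, SE, 2 arrays a group, adjusted p = 0.000209), a 7.78-fold rise. IFNβ alone raised it by 2.29 (adjusted p = 0.00239). With Nec-1 added it read 14.42 and 14.50 after LPS+zVAD and 13.02 and 13.92 after IFNβ+zVAD, again above the untreated values. After zVAD alone the values of 12.23 and 13.16 were also higher, and the change of 1.70 did not pass (adjusted p = 0.571). The untreated Ifnar1-/- values were 12.98 and 11.96, above those of WT cells, and the LPS values of 12.06 and 11.77 overlapped them. The change there was -0.55 (adjusted p = 0.533). The difference between the responses to LPS was -3.51 ± 0.75 (Ifnar1-/- minus WT, adjusted p = 0.00736), and the untreated level of Ifnar1-/- cells, of which replicate 1 is the higher, enters it. Without that array the difference was -3.00 (adjusted p = 0.0538). With LPS+zVAD the Ifnar1-/- values were 14.04 and 13.68, higher than both untreated values, and the change of 1.39 had an adjusted p of 0.059, or 0.00826 with the replicate block. The difference between the responses to LPS+zVAD, -1.65 ± 0.75, did not pass without the block (adjusted p = 0.154) and passed with it (adjusted p = 0.0304).

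Dusp2, a nuclear phosphatase of activated immune cells, had the largest LPS response of the 9 genes. In untreated WT cells it read 10.45 and 11.25, and with LPS 16.96 and 16.46. LPS raised it by 5.86 ± 0.54 (log2, SE, adjusted p = 2.37e-07), a 58.2-fold rise. IFNβ brought it to 13.40 and 14.36, a rise of 3.03 (adjusted p = 0.000227) or 8.17-fold. With LPS+zVAD it stood at 14.74 and 14.15, below both LPS values, and with LPS+zVAD+Nec-1 at 16.74 and 16.29, which overlap the LPS values. With zVAD alone the values were 11.97 and 13.48, both above the untreated ones, and the change of 1.88 did not pass the threshold (adjusted p = 0.466). The gene read 11.07 and 11.51 in untreated Ifnar1-/- cells, 13.79 and 14.32 with LPS, and 13.81 and 13.95 with LPS+zVAD. These rises, of 2.76 (adjusted p = 0.00104) and 2.59 (adjusted p = 0.00151), passed the threshold. With IFNβ the Ifnar1-/- values were 10.93 and 11.42, which overlap the untreated ones. The LPS response differed between the genotypes by -3.10 ± 0.76 (adjusted p = 0.0171), and by -2.70 to -2.88 with adjusted p from 0.0697 to 0.0865 when WT untreated replicate 1, Ifnar1-/- untreated replicate 2, WT LPS replicate 1 or Ifnar1-/- LPS replicate 1 was left out. The IFNβ response differed by -3.15 (adjusted p = 0.00681), and this call was kept without each array.

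Dusp4, a nuclear phosphatase that acts on ERK and other MAPKs, was on average highest with LPS+zVAD in both genotypes. In untreated WT cells it read 8.18 and 8.05 and with LPS 9.27 and 9.37. The LPS values were higher by 1.20 ± 0.69, which did not pass the threshold (adjusted p = 0.186). With LPS+zVAD the values were 12.88 and 12.50, a rise of 4.57 over untreated cells (adjusted p = 2.06e-05) or 23.8-fold, and with IFNβ+zVAD 10.73 and 12.92, a rise of 3.71 (adjusted p = 0.000362). The IFNβ values, 9.31 and 10.89, lay above the untreated ones, and the rise of 1.98 (adjusted p = 0.033) was not called without WT untreated replicate 1 (adjusted p = 0.0957), WT untreated replicate 2 (0.128) or WT IFNβ replicate 2 (0.309). The rise with LPS+zVAD+Nec-1, 2.46 (adjusted p = 0.00822), was not called without WT LPS+zVAD+Nec-1 replicate 2 (adjusted p = 0.0856). With zVAD alone both arrays, at 10.47 and 11.15, were higher than both untreated ones, by 2.69 on average (adjusted p = 0.4). Untreated Ifnar1-/- cells read 10.29 and 10.39, more than 2 units above untreated WT cells, and with LPS+zVAD they read 12.58 and 12.78. That rise, 2.34 (adjusted p = 0.0168), had an adjusted p of 0.0685 to 0.0811 without any 1 of its 4 arrays. With IFNβ+zVAD+Nec-1 the Ifnar1-/- values of 8.20 and 8.34 were below both untreated ones. The change of -2.07 did not pass (adjusted p = 0.193). It passed with the replicate block (0.0491) and in a fit of the compared arrays alone (0.0448).

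Dusp5, the nuclear phosphatase selective for ERK, had a probe near background in several groups, and it rose most with LPS+zVAD. Untreated WT cells read 2.97 and 3.26, with 1 of the 2 arrays above background. The LPS values were 4.68 and 4.71, the IFNβ values 4.57 and 5.70, the LPS+zVAD values 7.30 and 8.81 and the IFNβ+zVAD values 5.42 and 6.46. Both LPS+zVAD arrays were above all other arrays. The rise with LPS+zVAD was 4.94 ± 0.58 (adjusted p = 1.12e-06), or 30.7-fold. Because the untreated signal is near background, the size depended on how background was removed. It was 2.10 with the normexp background correction and 3.29 in the authors' table, and it passed the threshold in each. The rise with LPS, 1.58 (adjusted p = 0.0362), did not hold in the same way. It was 0.34 with normexp (adjusted p = 0.334) and 0.73 in the authors' table (adjusted p = 0.139), and it was not called without any 1 of its 4 arrays (adjusted p from 0.0855 to 0.146). The rise with IFNβ, 2.02 (adjusted p = 0.0108), was 0.45 with normexp (adjusted p = 0.198) and 0.90 in the authors' table (adjusted p = 0.074), and it was not called without WT untreated replicate 1 (adjusted p = 0.0675) or WT IFNβ replicate 2 (adjusted p = 0.131). That with IFNβ+zVAD, 2.82 (adjusted p = 0.000811), passed in each alternative, at 0.73 with normexp. With Nec-1 added, the rise of 2.43 over untreated cells with LPS+zVAD+Nec-1 (adjusted p = 0.00245) was not called with normexp (adjusted p = 0.0905). The rise of 1.93 with IFNβ+zVAD+Nec-1 (adjusted p = 0.0161) was not called with normexp (adjusted p = 0.199), nor without WT untreated replicate 1 (0.0889), WT untreated replicate 2 (0.0521) or WT IFNβ+zVAD+Nec-1 replicate 2 (0.201). Untreated Ifnar1-/- cells had values of 5.34 and 5.61, above the untreated WT values, and the LPS+zVAD values of 5.75 and 6.38 were higher than both by 0.59 on average (adjusted p = 0.514). With LPS and with both treatments that held Nec-1 the probe was not well above background on either Ifnar1-/- array, with values from 3.06 to 4.78.

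Dusp6, the main cytoplasmic ERK phosphatase, did not rise past the threshold over untreated cells in any treatment. Untreated WT cells read 11.36 and 12.14, LPS+zVAD 10.30 and 10.61, and LPS+zVAD+Nec-1 9.92 and 10.55. The fall with LPS+zVAD+Nec-1, by 1.51 (log2, adjusted p = 0.0297), was not called without WT untreated replicate 2 (adjusted p = 0.223) or WT LPS+zVAD+Nec-1 replicate 1 (adjusted p = 0.191), nor on the 75th percentile scale (adjusted p = 0.0674). The lower values with LPS+zVAD, by 1.30, had an adjusted p of 0.0506, or 0.00761 with the replicate block. With LPS alone the replicates were far apart, at 9.42 and 11.91. The change of -1.08 did not pass (adjusted p = 0.117), but it passed with the replicate block (0.0257) and, at -2.33, without WT LPS replicate 2 (0.000447). The Ifnar1-/- values were 12.36 and 12.22 untreated, 11.86 and 11.70 with LPS, and 10.17 and 10.29 with LPS+zVAD. It fell by 2.06 ± 0.53 with LPS+zVAD (adjusted p = 0.00736), and the adjusted p was 0.0535 without Ifnar1-/- LPS+zVAD replicate 1. The LPS+zVAD arrays of Ifnar1-/- cells lay below all other Ifnar1-/- arrays.

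Dusp7, the other cytoplasmic ERK phosphatase, fell with every treatment that held IFNβ in WT cells. Its values were 11.20 and 11.85 untreated, 9.07 and 9.91 with IFNβ, 9.28 and 10.01 with IFNβ+zVAD, and 9.19 and 9.72 with IFNβ+zVAD+Nec-1. None of these treated values reached the untreated ones, and the falls were 2.03 ± 0.38 (adjusted p = 0.000333), 1.88 (adjusted p = 0.000616) and 2.07 (adjusted p = 0.000348) on the log2 scale. The fall with IFNβ alone was 4.1-fold. With LPS the values of 10.57 and 11.35 overlapped the untreated ones, and the change was -0.57 (adjusted p = 0.251, and 0.00782 with the replicate block, within which both LPS arrays were below the untreated array of their own slide). LPS+zVAD, with a change of -0.89, had an adjusted p of 0.0541, or 0.00016 with the block. In Ifnar1-/- cells the IFNβ values of 10.59 and 10.86 overlapped the untreated 10.72 and 10.92. The difference between the responses to IFNβ was 1.94 ± 0.53 (Ifnar1-/- minus WT, adjusted p = 0.0151), and it was not called without WT untreated replicate 2 (adjusted p = 0.0788), Ifnar1-/- untreated replicate 1 (0.0584), WT IFNβ replicate 1 (0.0872) or Ifnar1-/- IFNβ replicate 2 (0.0591).

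Dusp10, a phosphatase directed at JNK and p38, had the largest rise of the 9 genes after IFNβ and after LPS+zVAD. Untreated WT cells read 4.77 and 5.44, IFNβ 9.49 and 9.28, LPS+zVAD 10.60 and 12.07, and IFNβ+zVAD 9.09 and 10.52. LPS alone gave 7.56 and 4.94, of which the second lies between the untreated values. The change with LPS was 1.15 ± 0.72 (adjusted p = 0.226). IFNβ raised the gene by 4.28 (adjusted p = 0.000144), 19.5-fold, and LPS+zVAD by 6.23 (adjusted p = 9.61e-07), 75.1-fold. With normexp these rises were 2.62 and 4.50 and they were 3.32 and 5.29 in the authors' table, all called. With LPS+zVAD+Nec-1 the values were 6.88 and 8.91, and the rise of 2.79 (adjusted p = 0.00446) was not called without WT LPS+zVAD+Nec-1 replicate 2 (adjusted p = 0.101). In Ifnar1-/- cells the gene read 6.20 and 6.14 untreated and 6.35 and 6.20 with IFNβ. With LPS+zVAD it was 9.17 and 8.84, a rise of 2.83 (adjusted p = 0.00661, and 0.0556 without Ifnar1-/- LPS+zVAD replicate 1). With LPS alone the probe was not well above background on either Ifnar1-/- array (3.78 and 3.59). The gene measured 5.61-fold lower there than in untreated cells (adjusted p = 0.0161). The probe's own signal sets this value, and its size differed between ways of processing. The log2 change of -2.49 was -0.72 with normexp (adjusted p = 0.335) and -1.27 in the authors' table (adjusted p = 0.123), and the adjusted p was 0.0659 to 0.0851 without any 1 of the 4 arrays. The IFNβ response differed between the genotypes by -4.18 ± 1.02 (adjusted p = 0.0075), and this call was kept without each array.

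Dusp16, the other phosphatase directed at JNK, had its highest values with LPS in both genotypes. Untreated WT cells read 9.96 and 10.14, LPS 14.42 and 14.38, IFNβ 11.67 and 12.98, and LPS+zVAD 12.73 and 12.63. The WT LPS arrays were above all other arrays. LPS raised the gene by 4.35 ± 0.65 (adjusted p = 3.55e-05) in WT cells, 20.4-fold, and by 3.57 (adjusted p = 0.000644) in Ifnar1-/- cells, from 9.79 and 10.08 to 13.44 and 13.56. The difference between these responses was -0.78 ± 0.92 (adjusted p = 0.76, 95% interval -2.71 to 1.15), so neither an equal response nor a difference of 2-fold in either direction lies outside it. With LPS+zVAD the Ifnar1-/- values were 12.34 and 12.58, a rise of 2.53 (adjusted p = 0.00695, and 0.0506 without Ifnar1-/- untreated replicate 1), and the WT rise was 2.63 (adjusted p = 0.00222). The WT rise with IFNβ, 2.28 (adjusted p = 0.0103), was not called without WT untreated replicate 1 (adjusted p = 0.0577) or WT IFNβ replicate 2 (adjusted p = 0.131). The rise with IFNβ+zVAD, 2.39 (adjusted p = 0.00696), had an adjusted p of 0.0787 without replicate 2 of that group, and that with IFNβ+zVAD+Nec-1, 2.05 (adjusted p = 0.0215), was not called without either WT untreated array (0.0954 and 0.0735) or WT IFNβ+zVAD+Nec-1 replicate 2 (0.174). The IFNβ values of Ifnar1-/- cells, 9.69 and 10.05, overlapped the untreated ones.

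Dusp3, which encodes VHR, fell in 6 WT treatments and did not rise past the threshold over untreated cells in any treatment. Its values in WT cells were 14.82 and 14.95 untreated, 11.92 and 12.43 with LPS, 13.49 and 14.05 with IFNβ, and 12.25 and 13.06 with LPS+zVAD+Nec-1. It fell with LPS by 2.71 ± 0.33 (log2, adjusted p = 4.11e-06), 6.55-fold, and in Ifnar1-/- cells by 2.03 (adjusted p = 0.000258), from 15.69 and 15.57 to 13.63 and 13.57. With LPS+zVAD the WT values were 13.98 and 14.19, below the untreated ones but well above those with LPS. That fall, by 0.80 (adjusted p = 0.0488), was the least firm of the 6. It was not called without any 1 of its 4 arrays (adjusted p from 0.0863 to 0.182), its value was -0.17 on the 75th percentile scale (adjusted p = 0.753), and the gene's second probe gave 0.14. The fall with IFNβ, by 1.11 (adjusted p = 0.0125), was 0.64 on the 75th percentile scale (a change of -0.64, adjusted p = 0.294), and it was not called without WT untreated replicate 2 (adjusted p = 0.0743) or WT IFNβ replicate 1 (adjusted p = 0.138). With IFNβ+zVAD the gene fell by 1.35 (adjusted p = 0.00311), with an adjusted p of 0.0571 without replicate 1 of that group and of 0.12 on the 75th percentile scale.

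For Dusp3, Dusp7 and Dusp16 a second, dimmer probe gave a separate reading of the same RNA. On mm9, the build of the array's coordinates, the Dusp3 probes lie at chr11:101832460-101832519 and chr11:101835524-101835583, the Dusp7 probes at chr9:106277985-106278044 and chr9:106277943-106278000, which overlap, and the Dusp16 probes at chr6:134665783-134665842 and chr6:134668003-134668062. Over the 22 comparisons within a genotype the brighter Dusp3 probe was called 10 times and the second 7, and all 7 were shared. In 9 of the 10 the second probe had the same sign, and the exception was the WT LPS+zVAD comparison. The Dusp16 probes were called 9 and 8 times, with 8 shared, and the Dusp7 probes 3 and 2 times, with 2 shared. The probes of a gene differed by at most 1.08 for Dusp3, 1.01 for Dusp7 and 0.872 for Dusp16 on the log2 scale. For Dusp7 the comparison that the second probe did not call was IFNβ+zVAD+Nec-1 in WT cells, where it fell less, with a change of -1.06 against -2.07.

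**Figure D3:**
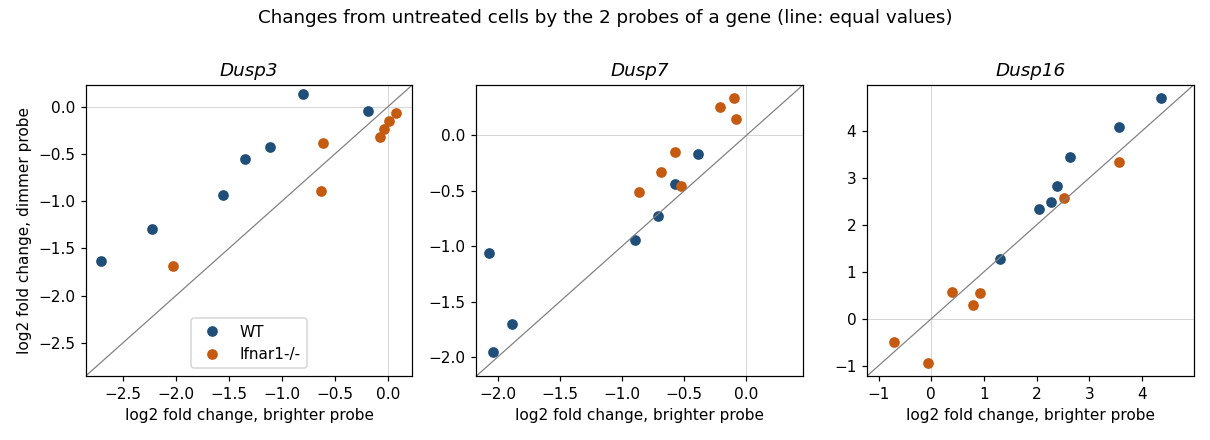
For Dusp3, Dusp7 and Dusp16, the log2 fold change from untreated cells by the dimmer probe (y axis) is plotted against that by the brighter probe (x axis), 1 point for each of 7 treatments in WT (blue) and Ifnar1-/- cells (orange), with a line at equal values. The points of Dusp16 lie within 0.872 of the line, the WT points of Dusp3 with the larger falls lie above it, where the dimmer probe fell less, and in Dusp7 1 WT point (IFNβ+zVAD+Nec-1) lies 1.01 above it.

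Adding zVAD to LPS, the treatment that leads to necroptosis in such cells, raised 4 of the 9 genes and lowered 2 others. The comparison is with LPS alone in WT cells, where 12.8% of all genes were higher and 21.7% lower. Dusp10 rose by 5.08 (adjusted p = 2.85e-05), 33.8-fold, Dusp4 by 3.37 (adjusted p = 0.00089), Dusp5 by 3.37 (adjusted p = 0.000184) and Dusp3 by 1.91 (adjusted p = 0.000177). Dusp2, the most strongly LPS-induced of the 9, fell by 2.26 (adjusted p = 0.00269). Dusp16 fell by 1.72 (adjusted p = 0.0476), a call lost without any 1 of its 4 arrays (adjusted p from 0.115 to 0.167). Dusp1 (0.08, adjusted p = 0.937), Dusp6 (-0.21, 0.818) and Dusp7 (-0.32, 0.574) did not pass. The Dusp5 rise was 1.76 with normexp and passed there too.

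Adding Nec-1 to LPS+zVAD changed 5 of the genes in the opposite direction in WT cells, with 1 higher and 4 lower, where 18.7% of all genes were higher and 9.76% lower. Dusp10 fell by 3.44 (adjusted p = 0.00136), Dusp5 by 2.51 (adjusted p = 0.00291), Dusp4 by 2.11 (adjusted p = 0.0281) and Dusp3 by 1.43 (adjusted p = 0.00275), while Dusp2 rose by 2.07 (adjusted p = 0.00652). Both comparisons share the LPS+zVAD arrays, so the opposite signs are in part fixed by them. Leaving out WT LPS+zVAD replicate 2 gave adjusted p-values of 0.0803 for Dusp2, 0.0849 for Dusp4 and 0.083 for Dusp5, and leaving out WT LPS+zVAD+Nec-1 replicate 1 gave 0.0578 for Dusp2, 0.0622 for Dusp3 and 0.196 for Dusp4. Dusp4 was also not called without WT LPS+zVAD replicate 1 (adjusted p = 0.118). In a fit of the compared arrays alone, none of the 5 passed (adjusted p from 0.0541 to 0.0818). The count of called pairs for zVAD or Nec-1 added was 11 of 36 in WT cells, 7 without WT LPS+zVAD replicate 2, 7 without WT LPS+zVAD+Nec-1 replicate 1 and 6 in the fits of the compared arrays alone. For IFNβ in WT cells, limma called 0 of the 9 genes when zVAD was added (0% of all genes, with 1 of the 9 and 637 of all genes at an unadjusted p under 0.05) and 0 of the 9 when Nec-1 was added to IFNβ+zVAD (0% of all genes, with 1 and 613 unadjusted). The differences there ranged from -0.24 to 1.73 and from -1.89 to 0.63, with Dusp4 the largest in both.

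In Ifnar1-/- cells adding zVAD to LPS gave 3 genes higher and 0 lower, against 4.57% and 3.68% of all genes. Dusp10 measured 39.9-fold higher, or 5.32 on the log2 scale (adjusted p = 0.000143), against LPS values not well above background. The rise was 2.77 with normexp and 3.75 in the authors' table, and it passed in both. Dusp1 rose by 1.94 (adjusted p = 0.0292) and Dusp3 by 1.42 (adjusted p = 0.0105). The Dusp1 call was lost without any 1 of its 4 arrays (adjusted p from 0.0858 to 0.226), and the Dusp3 call without Ifnar1-/- LPS replicate 1 (0.0723), LPS replicate 2 (0.0775) or LPS+zVAD replicate 1 (0.125). With the replicate block Dusp6 (-1.55, adjusted p = 0.0829 without it and 0.0102 with it) and Dusp5 (1.41, adjusted p = 0.152 and 0.0261), which was below background with LPS, passed as well. With only the compared arrays in the fit these 2 (0.0128 and 0.045), Dusp4 (1.5, adjusted p = 0.0205) and Dusp16 (-1.04, adjusted p = 0.0295) passed. The Dusp2 difference of -0.18 did not pass (adjusted p = 0.925). Adding Nec-1 to LPS+zVAD gave 1 higher and 3 lower, against 11.1% and 7.64% of all genes, of which the share of called genes that were higher moved from 59.28% to 42.30% on the 75th percentile scale. Dusp10 fell by 3.06 (adjusted p = 0.00702) and Dusp4 by 2.92 (adjusted p = 0.00734). Dusp5 was 4.65-fold lower (adjusted p = 0.00911), with its signal held at or above the lowest counted as above background. Dusp6 rose by 1.82 (adjusted p = 0.0234). The Dusp5 change, measured as -2.36 on the log2 scale, was -0.68 with normexp (adjusted p = 0.0704). Without the array that stood apart, Dusp5 (adjusted p = 0.00981) and Dusp6 (adjusted p = 0.0411) still passed, while Dusp10 (-2.89, adjusted p = 0.0547) and Dusp4 (-1.70, adjusted p = 0.158) did not. The Dusp5 call was also lost without Ifnar1-/- LPS+zVAD replicate 2 (adjusted p = 0.0778) or LPS+zVAD+Nec-1 replicate 1 (0.0702), that of Dusp6 without LPS+zVAD replicate 1 (0.132), replicate 2 (0.0822) or LPS+zVAD+Nec-1 replicate 1 (0.118), and that of Dusp10 without LPS+zVAD replicate 1 (0.0668).

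Ifnar1-/- cells with IFNβ gave 0 of the 9 genes called by limma when zVAD was added (0.00623% of all genes, with 0 of the 9 and 370 of all genes at an unadjusted p under 0.05). When Nec-1 was added to IFNβ+zVAD, 0 were higher and 1 lower, against 1.05% and 0.53% of all genes. The 1 gene was Dusp5 (adjusted p = 0.0294), from 6.35 and 6.38 to 3.08 and 4.65. The call was lost without IFNβ+zVAD replicate 1, IFNβ+zVAD replicate 2 or IFNβ+zVAD+Nec-1 replicate 1. Dusp5 was 3.1-fold lower with its signal held at or above the lowest counted as above background. Its log2 change of -2.50 was -0.81 with normexp (adjusted p = 0.156). Dusp4, with a change of -2.36 (adjusted p = 0.12), passed with the replicate block (0.0282). Without either Ifnar1-/- LPS+zVAD+Nec-1 array, which enter here only through the shared estimate of the spread, Dusp4 (0.0325) and Dusp16 (-1.52, adjusted p = 0.0321) passed. Over the 4 comparisons of Ifnar1-/- cells for zVAD or Nec-1 added, 8 of 36 pairs were called, 4 without LPS+zVAD replicate 1 and 5 without LPS+zVAD replicate 2.

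**Figure D4:**
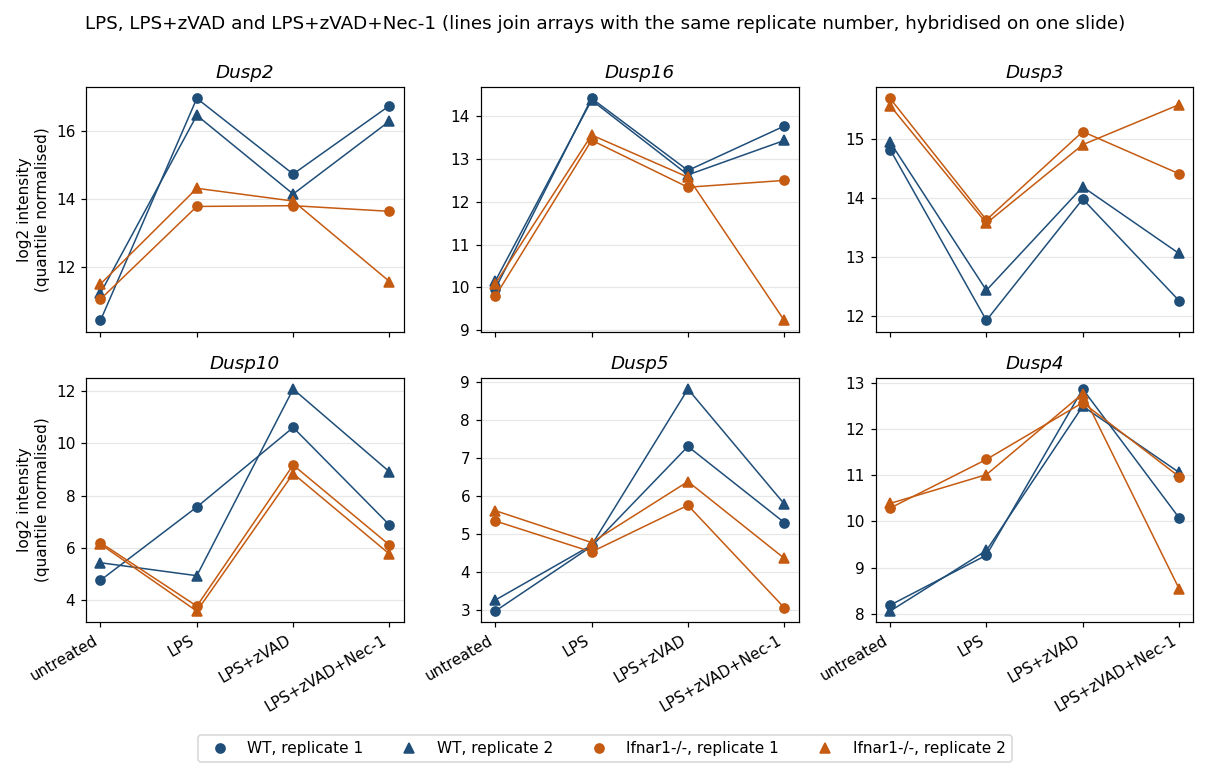
The log2 signal (y axis) of Dusp2, Dusp16, Dusp3, Dusp10, Dusp5 and Dusp4 is plotted for untreated, LPS, LPS+zVAD and LPS+zVAD+Nec-1 cells (x axis), with WT in blue and Ifnar1-/- in orange, and a line joins the arrays of one slide. In WT cells Dusp2 and Dusp16 dip and Dusp3, Dusp10, Dusp5 and Dusp4 peak at LPS+zVAD relative to the LPS groups on either side. Ifnar1-/- replicate 2 (orange triangles) departs from replicate 1 at LPS+zVAD+Nec-1 in Dusp2, Dusp16, Dusp3 and Dusp4. It also does so in Dusp5 (3.06 and 4.36 for replicates 1 and 2), where neither array was well above background.

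The response of the 9 genes differed between the genotypes in 24 of 63 pairs of gene and treatment, with 19 responses lower and 5 higher in Ifnar1-/- than in WT cells. For LPS 0 were higher and 3 lower (Dusp1, Dusp2 and Dusp10), where 3.03% of all genes were higher and 3.6% lower. For IFNβ 1 was higher (Dusp7) and 2 lower (Dusp2 and Dusp10), against 10.2% and 8.53%. For LPS+zVAD 0 were higher and 2 lower (Dusp5 and Dusp10), against 11.3% and 4.78%. IFNβ+zVAD gave 1 higher (Dusp7) and 3 lower (Dusp2, Dusp4 and Dusp10), against 10.9% and 8.39%. LPS+zVAD+Nec-1 gave 1 higher and 4 lower (10.7% and 7.11%), and IFNβ+zVAD+Nec-1 2 higher and 5 lower (10% and 8.16%). For zVAD alone limma called 0 of the 9 and 0% of all genes, with 2 of the 9 and 163 of all genes at an unadjusted p under 0.05. A higher value for Dusp7 and Dusp3 means that the fall seen in WT cells was smaller in Ifnar1-/- cells by the brightest probe. The second probes were not tested for this. In LPS+zVAD+Nec-1 the second Dusp3 probe changed by -1.30 in WT and -0.89 in Ifnar1-/- cells, and in IFNβ+zVAD+Nec-1 by -0.93 and -0.32. There the second Dusp7 probe changed by -1.06 and -0.46. It changed by -1.95 and 0.34 with IFNβ, and by -1.70 and 0.26 with IFNβ+zVAD. With the mean of a gene's probes, the Dusp3 and Dusp7 differences with Nec-1 were not called. Each test of the difference holds the untreated level of both genotypes. By their brightest probes, Dusp1, Dusp3, Dusp4, Dusp5, Dusp6 and Dusp10 began higher in untreated Ifnar1-/- than in untreated WT cells and Dusp7 lower. The arrays of these genes did not overlap, which the slides do not allow to be tested. Dusp2 and Dusp16 overlapped. So did the second Dusp7 probe, with 9.62 and 9.82 in untreated WT and 9.84 and 9.77 in untreated Ifnar1-/- cells. The share of all genes without such an overlap was not counted, so whether the lack of overlap is particular to these genes is not known. The count of 24 was 15 and 14 without WT untreated replicate 1 and 2, 12 and 13 without Ifnar1-/- untreated replicate 1 and 2, and 36 with the replicate block. On the 75th percentile scale the share of called genes with a higher response in Ifnar1-/- cells was 40.92% in place of 54.56% for IFNβ, 43.19% in place of 56.44% for IFNβ+zVAD, 46.51% in place of 60.03% for LPS+zVAD+Nec-1 and 45.09% in place of 55.09% when IFNβ+zVAD was combined with Nec-1.

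**Figure D5:**
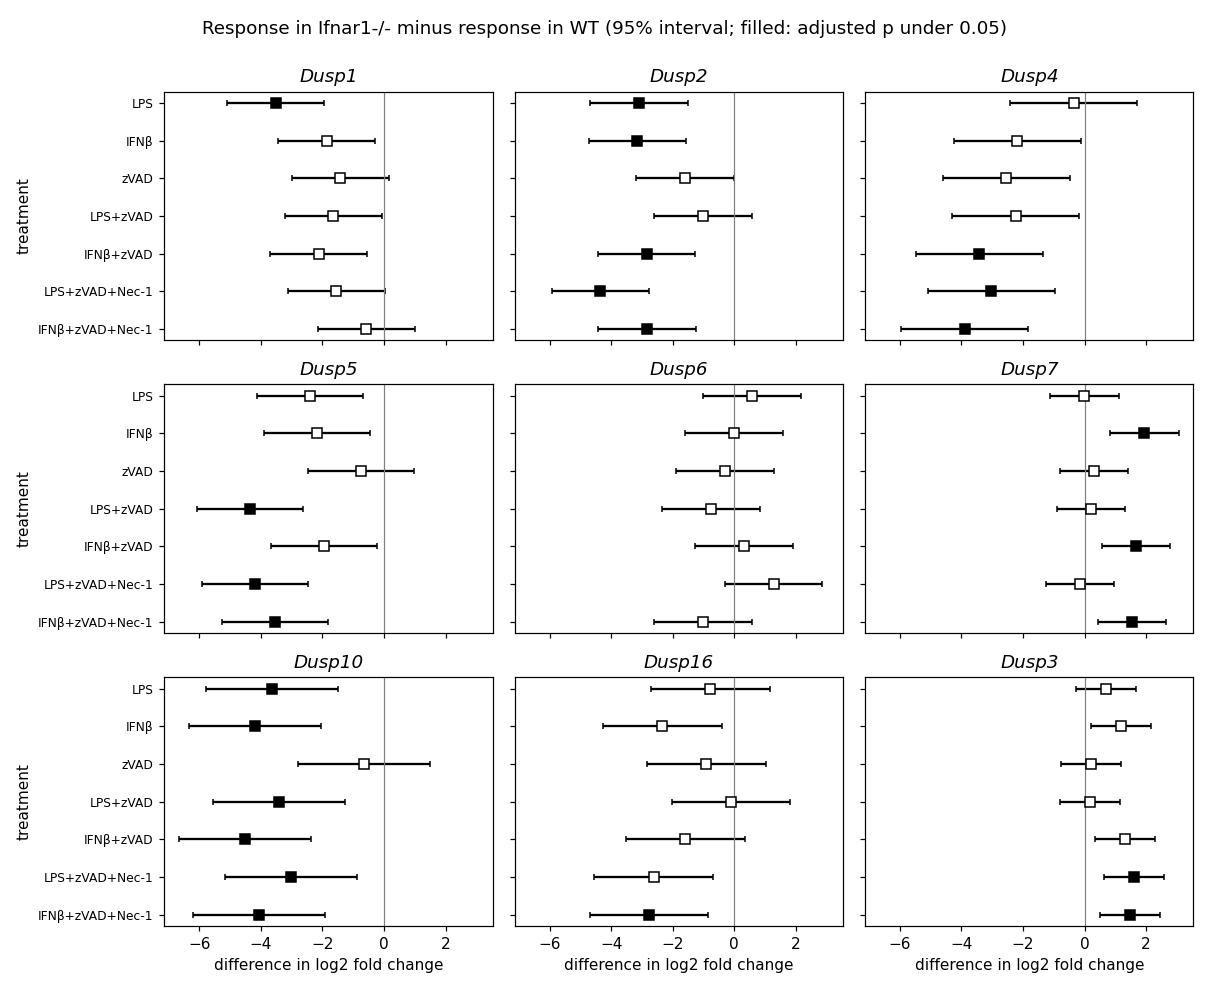
For each gene (panels) and treatment (y axis), the square is the change from untreated in Ifnar1-/- cells minus that in WT cells (x axis, difference in log2 fold change), with its 95% interval, and it is filled at an adjusted p under 0.05. Dusp10 is filled in all treatments except zVAD, with values from -3.02 to -4.51, and Dusp6 in none.

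Dusp10 was the gene that differed in all 6 treatments other than zVAD. Its difference was -3.64 with LPS (adjusted p = 0.0377), -4.18 with IFNβ (0.0075), -3.40 with LPS+zVAD (0.0282), -4.51 with IFNβ+zVAD (0.00448), -3.02 with LPS+zVAD+Nec-1 (0.0474) and -4.05 with IFNβ+zVAD+Nec-1 (0.00959). The 3 with IFNβ were kept without each array. The LPS value rests on Ifnar1-/- arrays below background. It was -1.31 with normexp (adjusted p = 0.336) and -1.93 in the authors' table (0.212), it was not called without the filter on dim probes (0.0618) or with only the compared arrays in the fit (0.112), and it was not called without any 1 of 7 of the 8 arrays (adjusted p from 0.0644 to 0.256, the exception being WT LPS replicate 2). That for LPS+zVAD was not called without WT untreated replicate 1, either Ifnar1-/- untreated array, WT LPS+zVAD replicate 2 or either Ifnar1-/- LPS+zVAD array (adjusted p from 0.0532 to 0.144). Dusp5 differed by -4.35 with LPS+zVAD (adjusted p = 0.00138), which was kept without each array and was -1.84 with normexp (adjusted p = 0.0018). Its values of -4.20 with LPS+zVAD+Nec-1 and -3.54 with IFNβ+zVAD+Nec-1 (adjusted p = 0.00156 and 0.00538) rest on Ifnar1-/- arrays below background, so their size is not measured, and were -0.99 and -0.90 with normexp, which were not called (adjusted p = 0.0679 and 0.0966).

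For IFNβ+zVAD the other differences were -2.85 for Dusp2 (adjusted p = 0.0128), -3.42 for Dusp4 (0.02) and 1.67 for Dusp7 (0.0336). Dusp2 was not called without WT untreated replicate 1 (0.0622), Dusp4 without WT untreated replicate 2, either Ifnar1-/- untreated array or replicate 2 of either treated group (from 0.0541 to 0.117), and Dusp7 without WT untreated replicate 2, either Ifnar1-/- untreated array, WT IFNβ+zVAD replicate 1 or Ifnar1-/- IFNβ+zVAD replicate 2 (from 0.0593 to 0.147). In IFNβ+zVAD+Nec-1 the differences were -2.83 for Dusp2 (adjusted p = 0.0136), -3.89 for Dusp4 (0.00954), -2.77 for Dusp16 (0.043), 1.48 for Dusp3 (0.0329) and 1.55 for Dusp7 (0.0496). Dusp4 was kept without each array, and Dusp2 was lost without WT untreated replicate 1 (0.0649) or Ifnar1-/- untreated replicate 2 (0.0544). The other 3 were each lost without any of at least 6 of the 8 arrays, with adjusted p up to 0.148 for Dusp16, 0.141 for Dusp3 and 0.204 for Dusp7.

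In LPS+zVAD+Nec-1 the genotype differences were -4.35 for Dusp2 (adjusted p = 0.000624), -3.04 for Dusp4 (0.0384), -4.20 for Dusp5 (0.00156), -3.02 for Dusp10 (0.0474) and 1.60 for Dusp3 (0.0217). Without the array that stood apart, Dusp2 at -3.32 (adjusted p = 0.00287) and Dusp5 at -4.85 (adjusted p = 0.00115) were kept. Dusp4 at -1.82 (adjusted p = 0.228), Dusp10 at -2.85 (0.124) and Dusp3 at 1.01 (0.136) were not, and these 3 were also lost without most of the other arrays (adjusted p from 0.0522 to 0.224). The changes of Ifnar1-/- cells with LPS+zVAD+Nec-1 from untreated cells, of which 0 passed with both arrays, were also larger without it. They were then 2.57 for Dusp16 (adjusted p = 0.000785, against 0.93 and 0.661 with both), 2.35 for Dusp2 (adjusted p = 0.0047), 2.22 for Dusp1 (0.0291) and -1.22 for Dusp3 (0.0175), each resting on replicate 1 alone, which is assumed to vary like the arrays of the other groups. Dusp5 was not well above background on that array, so its change there (adjusted p = 0.0215) has no measured size.

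With the slide as a block, no call was lost among the 95 called pairs of gene and comparison, and 30 further pairs passed. Among them, the difference between genotypes in the IFNβ response then passed for Dusp1 at -1.85 (adjusted p = 0.0153), Dusp3 at 1.19 (0.0202), Dusp4 at -2.19 (0.0491) and Dusp5 at -2.17 (0.0101). Without the block but leaving out either Ifnar1-/- LPS+zVAD+Nec-1 array, that difference passed for Dusp16 (-2.34, adjusted p = 0.0853 with all arrays and 0.00363 without one) and Dusp3 (0.0312). With the block Dusp7 passed in Ifnar1-/- cells with LPS (-0.58, adjusted p = 0.0111), LPS+zVAD (-0.68, 0.00328) and LPS+zVAD+Nec-1 (-0.86, 0.00629), and Dusp1 when Nec-1 was combined with LPS+zVAD (1.92, 0.00859) or with IFNβ+zVAD (1.89, 0.00817).

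Ordered by level over the 16 groups, most neighbouring groups could not be separated, since the ranges of their arrays overlapped in 14 of 15 neighbours for Dusp1, Dusp6 and Dusp7, in 13 for Dusp5, in 12 for Dusp2, Dusp3 and Dusp4, in 10 for Dusp10 and in 8 for Dusp16. WT LPS+zVAD stood clear of the next group at the top for Dusp5 and Dusp10, and WT LPS for Dusp16. Untreated WT cells were the lowest group for Dusp1, Dusp2, Dusp4 and Dusp5 and the highest for Dusp7. For Dusp3 the lowest group was WT LPS and for Dusp6 it was Ifnar1-/- LPS+zVAD. Dusp10 was lowest in Ifnar1-/- cells with LPS, and Dusp16 in Ifnar1-/- cells with IFNβ+zVAD+Nec-1.

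Some of the 9 genes ran together over the 16 group means, given here as a description across groups that share slides. Dusp2 and Dusp16 had a Pearson r of 0.96, Dusp4 and Dusp5 of 0.79, and Dusp5 and Dusp10 of 0.69, while Dusp3 ran against Dusp2 (r = -0.91) and Dusp16 (r = -0.90). For Dusp1, Dusp6 and Dusp7 the highest r with another of the 9 was 0.53, 0.56 and 0.21. The genes outside the 9 with the most similar pattern over the same 16 means were Lcp2 (r = 0.994), Tma16 (0.977) and Fnbp1l (0.976) for Dusp16, and Ube2z (0.972), Utp23 (0.971) and Ubtd2 (0.963) for Dusp2. For Dusp10 they were Tmem184a (0.971), Mafk (0.968) and Spty2d1 (0.967), for Dusp3 Hebp1 (0.985), Gm10554 (0.983) and Tpra1 (0.981), and for Dusp4 Plk2 (0.935), F3 (0.909) and Mapk6 (0.893). For Dusp5 they were Basp1 (0.891), Hnrnpk (0.880) and Ripk3 (0.872), for Dusp6 Gstz1 (0.919), Mef2c (0.905) and Nlrp10 (0.905), for Dusp7 1700025G04Rik (0.904), Rftn1 (0.868) and Glg1 (0.868), and for Dusp1 Ntn1 (0.838), Cyp27b1 (0.808) and Rhobtb1 (0.801).

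Other genes around the MAPKs are given for comparison, by lists drawn up with earlier results known. Of 15 further dual specificity phosphatase genes 12 were measured, and 2 were higher and 3 lower with LPS in WT cells, 4 and 0 with IFNβ, and 5 and 4 with LPS+zVAD. The LPS counts are near the share of all genes, 16.3% higher and 24.8% lower. With IFNβ all genes gave 13.7% and 21.6%, and with LPS+zVAD 18.3% and 32.7%. In both of these treatments the share of the 12 genes that was higher stood above that of all genes. Those named by size with LPS were Dusp9 (-2.70), Dusp11 (1.95), Dusp22 (-1.88) and Dusp28 (1.49), of which Dusp28 rose by 2.85 with IFNβ. Of 18 measured MAPK and MAPK kinase genes 4 were higher and 4 lower with LPS in WT cells (all genes 16.3% and 24.8%), led by Map2k6 (-3.19), which activates p38, and Mapkapk2 (2.13), a kinase downstream of p38 that rose by 2.86 in Ifnar1-/- cells. Map2k5, upstream of ERK5, fell by 1.68 and Map2k1, upstream of ERK, rose by 1.67.

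Of 5 measured genes on a list of Sprouty, SPRED and like inhibitors of the path from receptor kinases to ERK, 2 were higher and 0 lower with LPS in WT cells (all genes 16.3% and 24.8%). With LPS+zVAD 4 were higher and 0 lower (18.3% and 32.7%). Il17rd rose by 3.45 with LPS and fell with IFNβ, with a change of -3.05, and Spred1 rose by 2.68 and 2.73. Of 7 measured genes for other phosphatases of MAPKs, 2 were higher (Ppm1b and Ppp2ca, the latter by 0.98) and 0 lower with LPS (all genes 16.3% and 24.8%). Of 15 measured immediate early genes, which answer to MAPK activity, 7 were higher and 1 lower with LPS (all genes 16.3% and 24.8%) and 13 and 0 with LPS+zVAD (18.3% and 32.7%), with a median change of 1.27 and 2.53. The 4 named by size with LPS were Phlda1 (4.88), Ier3 (2.60), Zfp36 (2.53) and Ier2 (1.96). When zVAD was added to LPS 9 immediate early genes rose and 1 fell in WT cells (all genes 12.8% and 21.7%), and when Nec-1 was added to LPS+zVAD 1 rose and 7 fell (18.7% and 9.76%). In Ifnar1-/- cells adding zVAD to LPS raised 4 and lowered 0 (4.57% and 3.68%).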

How the data were processed

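RNA of BMDMs was labelled with 1 dye (Cy3) and hybridised to 32 Agilent mouse arrays of 55681 probes. The scanner software used by the authors gave each spot an intensity from which local background had been subtracted, and these deposited intensities were the values analysed. The authors also deposited a table of log2 values, used here only as an alternative. The log2 intensities were brought to a common distribution over all arrays by quantile normalization. Outlier spots (130 to 499 per array) were left out, and 0 were saturated. Of 33140 probes with a gene name, the 21478 that the software marked as well above background on 50% or more of the arrays were retained, and each of 16051 genes was represented by its brightest probe. Probes above background were 55.0% to 78.1% of all on WT and 44.6% to 61.6% on Ifnar1-/- arrays. The number of arrays limits the precision.

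The 16 group means were fitted with limma (version 3.58.1, R 4.3.3) with 16 residual degrees of freedom. P-values are two-sided, with Benjamini-Hochberg adjustment over the genes of each of 29 comparisons, and a gene at an adjusted p under 0.05 is called. The procedure was tested on simulated data. Where a gene was not well above background on either array of a group, its printed fold uses the higher of its signal and the lowest signal counted as above background on that array. Such a fold is not a lower bound. The log2 changes were smaller with normexp, whose added offset by itself makes the changes of dim probes smaller. The genes and lists were chosen with earlier results of these data known. All 9 genes are named, with at most 4 genes of each other list by the size of a called LPS change in WT cells and the 3 genes most correlated with each of the 9.

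Same-numbered arrays of a genotype share a slide, by the scanner headers. The deviations of same-numbered arrays from their group means were correlated in all 28 pairs of treatments in WT cells (r from 0.319 to 0.670) and all 28 in Ifnar1-/- cells (0.169 to 0.575), so the numbers pair the arrays. The fit with the slide as a replicate block was an alternative. The others were a shift to a common 75th percentile, normexp background correction (offset 50), no filter or a filter for both arrays of a group, the mean of a gene's probes, fits of the compared arrays alone, the authors' table, and leaving out the Ifnar1-/- LPS+zVAD+Nec-1 pair or each array in turn. Promoter sequences are from RefSeq (GRCm38.p6) and probe positions from the array files (mm9).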

Additional observations from a re-analysis of the deposited data

Results flagged for a closer look

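The response to a treatment differed between Ifnar1-/- and WT cells, by limma's test of the difference itself, in 24 pairs of gene and treatment. Each value is the log2 change from untreated in Ifnar1-/- cells minus that in WT cells. After LPS it was -3.51 for Dusp1, -3.10 for Dusp2 and -3.64 for Dusp10. After IFNβ it was -3.15 for Dusp2, 1.94 for Dusp7 and -4.18 for Dusp10. LPS+zVAD gave -4.35 for Dusp5 and -3.40 for Dusp10, and IFNβ+zVAD gave -2.85 for Dusp2, -3.42 for Dusp4, 1.67 for Dusp7 and -4.51 for Dusp10. With Nec-1 added to LPS+zVAD the values were -4.35 for Dusp2, 1.60 for Dusp3, -3.04 for Dusp4, -4.20 for Dusp5 and -3.02 for Dusp10. With Nec-1 added to IFNβ+zVAD they were -2.83 for Dusp2, 1.48 for Dusp3, -3.89 for Dusp4, -3.54 for Dusp5, 1.55 for Dusp7, -4.05 for Dusp10 and -2.77 for Dusp16. The values for Dusp5 with Nec-1, and that for Dusp10 after LPS, rest on Ifnar1-/- arrays not well above background, so their size is not measured, and each was smaller and not called with normexp (-0.99 and -0.90 for Dusp5, -1.31 for Dusp10). Groups of 2 arrays are too small for a search for single outlying arrays within a group.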

How the results depend on the processing

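No called change of the 9 genes reversed its sign under any alternative run. The calls that leaving out 1 array ended are named beside the results. Over all arrays left out in turn, the counts of called pairs ranged from 36 to 46 for WT treatments against untreated cells (43 with all arrays), from 6 to 14 for Ifnar1-/- treatments (9), from 7 to 11 for zVAD or Nec-1 added in WT cells (11), from 4 to 10 for the same in Ifnar1-/- cells (8) and from 12 to 28 for the difference between genotypes (24). With only the compared arrays in the fit the Ifnar1-/- count was 14 and the WT count for zVAD or Nec-1 added was 6. The replicate block, which uses the pairing of arrays on a slide, ended none of the 95 calls and gave counts of 49, 18, 11, 11 and 36 in the same order. The other settings gave 39 to 46, 8 to 10, 10 to 11, 6 to 8 and 17 to 25. With both arrays of the Ifnar1-/- LPS+zVAD+Nec-1 group left out, the WT counts were 46 and 11, and no count could be given for the families that contain that group. Of the 95 calls, 19 were not called with only the compared arrays in the fit. With normexp 14 were not called, 12 in the authors' table, 11 on the 75th percentile scale and 11 without the filter on dim probes. The cause was not tested. Signal over background limits Dusp5 and Dusp10 most. Dusp5 was not well above background on either array of 3 Ifnar1-/- groups, and Dusp10 on either array of 1. Their changes were smaller with normexp, whose added offset by itself makes the changes of dim probes smaller.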
